A study of Mus musculus with 6 samples.

Results

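EGFR, MET and AXL are receptor tyrosine kinases of the cell surface, and the transcripts of these receptors, of their closest partners and of their ligands were followed in cell lines from mouse liver tumors. The group holds 5 receptor genes (*Egfr*, *Erbb2*, *Erbb3*, *Met* and *Axl*) and 5 ligand genes (*Areg*, *Ereg*, *Tgfa*, *Hbegf* and *Hgf*). They were taken from the expression table by gene name and make up 10 of the 20856 genes with values. Each of the 10 names occurs once in the table.

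The expression of 6 lines was compared, each grown out of a tumor in the liver of an adult female C57BL/6 mouse. Tumors had been started by hydrodynamic injection of plasmids into the tail vein, which brings DNA into hepatocytes. All 6 lines carry an integrated *Myc* transposon and went through transient expression of Cas9 from the plasmid pX330. The guide RNA targeted *Trp53* in 3 lines (*Myc*; sg*Trp53*) and, in the other 3, *Kmt2c*, the gene of the histone methyltransferase MLL3 (*Myc*; sg*Kmt2c*, called sgMll3 in the labels). Every line received a guide against either of these genes, so a difference between the genotypes has no unedited reference. The lines are not isogenic. They grew in serum-containing medium on collagen-coated plates without further treatment and had been passaged until no fibroblasts were seen, and sg*Kmt2c* replicates 2 and 3 appear in the labels as lines 2A and 2T1. The labels do not say whether those lines share an animal. The resource table of the study gives different mice for the lines of a genotype, and they were counted as separate.

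EGFR, ERBB2 and ERBB3 belong to a family that works in pairs. ERBB2 has no known ligand of its own and ERBB3 has little kinase activity, so each signals mainly through a partner. Amphiregulin, epiregulin, TGF-alpha and HB-EGF are made as membrane-bound precursors, are cut free by ADAM proteases and bind EGFR. MET is the receptor for hepatocyte growth factor (HGF), which in liver comes mostly from stellate and other mesenchymal cells, and AXL binds GAS6. All 3 receptors feed the RAS-ERK and PI3K-AKT pathways, and EGFR and MET are known for their part in liver regeneration.

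Values are RPKM, the reads on a gene divided by a listed transcript length and by the size of the library. They are given in the order of replicates 1, 2 and 3 of each genotype, with n = 3 lines. The libraries held 5312182 to 6878625 reads on genes across the sg*Trp53* lines and 3680068 to 4704539 across the sg*Kmt2c* lines, so that a single read on a 2 kb transcript was worth 0.0726 to 0.136 RPKM. *Trp53* lay at 17.2, 17.6 and 19.4 RPKM across the sg*Trp53* lines, against 92.2, 124 and 121 RPKM across the sg*Kmt2c* lines, which puts all 6 on the side their labels give. *Kmt2c* overlapped, at 18.4 to 24.2 RPKM against 9.51 to 25.0 RPKM. In sg*Kmt2c* replicate 1 the whole profile stood apart: its Pearson correlation with the other 5 libraries, over the genes tested, was 0.759 to 0.836, against 0.881 to 0.951 for the 10 pairs among those. Its hepatocyte markers summed to 5613 RPKM, most of it *Apob* and *Hnf4a*, against 2.28 to 302 in the other 5 lines, and its fibroblast and stellate cell markers to 0.282 RPKM against 18.7 to 996. The levels of *Apob* and *Hnf4a* rest on short listed transcript lengths, of 1118 and 431 bases. The other hepatocyte markers lay at 1.44 to 19.3 RPKM in sg*Kmt2c* replicate 1. Of these markers *Alb*, the albumin gene, was near 0 in every line (0.644 to 4.36 RPKM), and endothelial markers summed to 0.302 RPKM or less. Immune cell markers summed to 46.8, 21.7 and 58.2 RPKM across the sg*Trp53* lines, against 6.28, 5.51 and 15.2 RPKM across the sg*Kmt2c* lines. Of those tested, *Lyz2* and *Csf1r* were lower across the sg*Kmt2c* lines without overlap, where 10.4% of all genes tested were, and *Cd68* overlapped. *Cd3e* and *Cd79a* had 0 reads. Fold changes of the receptors and ligands are therefore given with and without sg*Kmt2c* replicate 1. In RNA from a whole culture, fewer cells of a type and less RNA per cell cannot be told apart.

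None of the receptors or ligands differed between the genotypes after adjustment for all genes, but several differed widely among lines of the same genotype. *Areg* was higher in every sg*Kmt2c* line than in any sg*Trp53* line, and *Met* had the lower mean across the sg*Kmt2c* lines. *Axl* was the most abundant of the receptors in all 6 lines. *Hgf* was abundant in a single line, sg*Kmt2c* replicate 2, and *Areg*, *Ereg* and *Erbb3* were at least 16.5-fold higher in sg*Kmt2c* replicate 1 than in any other line.

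The test was limma on log2(RPKM + 1) over the 11617 genes with at least 1 RPKM in at least 3 of the 6 libraries. It included 8 of the 10 genes, while *Erbb3* and *Hgf* were too low in most lines. *Areg* reached the filter through 1 sg*Trp53* line and all 3 sg*Kmt2c* lines, so its place among the genes tested depended on the group in which it was high. Of the 8 genes tested, 0 had an adjusted p-value under 0.05, where 0.129% of all genes tested did (0.0516% higher and 0.0775% lower). At an unadjusted p-value under 0.05 there were 2 of the 8 (*Areg* and *Met*), against 8.58% of all genes tested. With limma voom on the recovered reads these counts were 0 and 1, since *Areg* then had an unadjusted p of 0.103. Over all alternatives the unadjusted p lay between 0.00106 and 0.103 for *Areg* and between 0.000857 and 0.105 for *Met* (limma). The median log2 fold change over all genes tested was -0.09, sg*Kmt2c* over sg*Trp53*, the direction used throughout. For a gene taken alone, the exact two-sided permutation test of 3 lines against 3 has a smallest possible p-value of 0.1.

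Among the receptors, *Axl* (chr7:25757273-25788705, GRCm38, ENSMUSG00000002602) lay at 74.6, 119 and 140 RPKM in sg*Trp53* replicates 1, 2 and 3. It lay at 220, 168 and 75.3 RPKM in sg*Kmt2c* replicates 1, 2 and 3. The genotypes overlapped through sg*Kmt2c* replicate 3, which lay at about the level of the lowest sg*Trp53* line. Replicates 1 and 2 of the sg*Kmt2c* lines lay above every sg*Trp53* line. The means were 111 ± 33.6 and 154 ± 73.3 RPKM (SD, n = 3 each), and the log2 fold change was 0.38 (95% confidence interval -0.67 to 1.44, adjusted p = 0.796 from limma). Without sg*Kmt2c* replicate 1, its highest line, the log2 fold change was 0.06. At 1372 to 4420 reads per library, counting error was far smaller than these differences between lines.

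*Egfr* (chr11:16752203-16918158, ENSMUSG00000020122) lay at 60.3, 31.0 and 67.2 RPKM across the sg*Trp53* lines, against 60.9, 17.6 and 28.5 RPKM across the sg*Kmt2c* lines. The high sg*Kmt2c* line, replicate 1, matched the upper sg*Trp53* lines, while the others lay below every sg*Trp53* line. The means were 52.8 ± 19.2 and 35.7 ± 22.5 RPKM (SD, n = 3 each), and the log2 fold change was -0.66 (95% confidence interval -1.85 to 0.53, adjusted p = 0.719 from limma). Without sg*Kmt2c* replicate 1 it was -1.13, with an interval of -2.09 to -0.16 and an adjusted p of 0.494 (limma), and the genotypes then did not overlap. With that line left out, 26.8% of all genes tested were free of overlap in either direction.

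*Met* (chr6:17463800-17573980, ENSMUSG00000009376) lay at 55.5, 21.0 and 54.2 RPKM across the sg*Trp53* lines. For the sg*Kmt2c* lines the values were 21.5, 18.5 and 15.7 RPKM. Replicates 1 and 3 of the sg*Trp53* lines thus stood above all others, and sg*Trp53* replicate 2 lay within 1 RPKM of the highest sg*Kmt2c* line and just below it. The means were 43.6 ± 19.5 and 18.6 ± 2.89 RPKM (SD, n = 3 each), 2.35-fold apart, and the log2 fold change was -1.08 (95% confidence interval -2.02 to -0.13, unadjusted p = 0.0312, adjusted p = 0.547 from limma). An exact two-sided permutation test of the RPKM values gave p = 0.2. Without sg*Kmt2c* replicate 1 the log2 fold change was -1.18 (adjusted p = 0.513 from limma). The genotypes then did not overlap, where 26.8% of all genes tested did not in either direction. The nearest lines, sg*Trp53* replicate 2 and sg*Kmt2c* replicate 2, had exact Poisson 95% intervals of 19.6 to 22.6 and 16.8 to 20.2 RPKM (counting error only). Without sg*Trp53* replicate 2 the log2 fold change was -1.52, the largest difference found for *Met* in any setting, and without sg*Trp53* replicate 1 it was -0.85. The 3 sg*Kmt2c* lines were close to each other in *Met*, with a spread on the log2 scale larger than that of only 19.3% of the genes tested, whereas across the sg*Trp53* lines its spread was larger than that of 90.2%.

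*Erbb2* (chr11:98412470-98437716, ENSMUSG00000062312) was the steadiest of the 10. It lay at 10.7, 9.04 and 9.41 RPKM across the sg*Trp53* lines, against 13.1, 10.3 and 11.2 RPKM across the sg*Kmt2c* lines, a narrow range in which the genotypes overlapped. Its log2 fold change was 0.22 (95% confidence interval -0.28 to 0.73, adjusted p = 0.758 from limma), an interval that leaves out a doubling, and 0.14 without sg*Kmt2c* replicate 1. Its spread was larger than that of 15.8% of the genes tested across the sg*Trp53* lines and of 11.7% across the sg*Kmt2c* lines.

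*Erbb3* (chr10:128567523-128589652, ENSMUSG00000018166) was close to its floor in most lines. For the sg*Trp53* lines the values were 0.627, 0.0625 and 0.217 RPKM, from 23, 2 and 9 reads. For the sg*Kmt2c* lines the values were 19.8, 0.0451 and 1.09 RPKM, from 561, 1 and 28 reads. Replicate 1 was 18.2-fold above the next highest line and carried more *Erbb3* than *Erbb2*, unlike the other 5 lines. The exact two-sided permutation test gave p = 0.4 for the genotypes. Without replicate 1 the sg*Kmt2c* mean was 0.567 RPKM, beside 0.302 for the sg*Trp53* lines. The hepatic epithelial markers *Krt8*, *Krt18*, *Epcam* and *Cdh1* summed to 3945 RPKM in this line and to 24.7 to 777 in the others. Their part in the level of *Erbb3* was not tested.

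**Figure D1:**
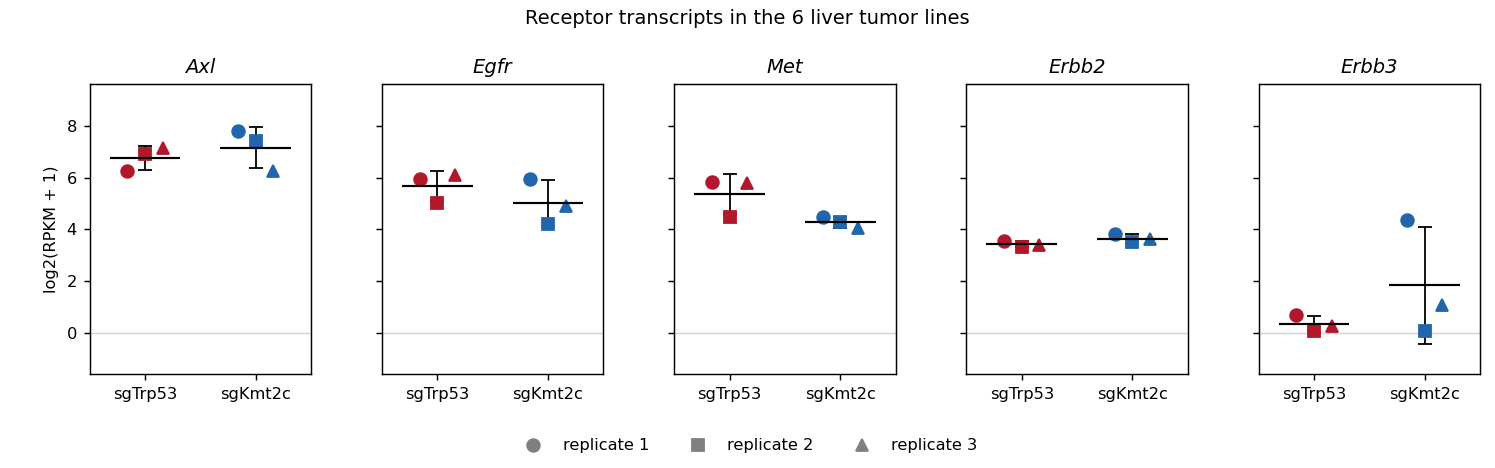
Level of the 5 receptor transcripts as log2(RPKM + 1), by genotype. Each point is a cell line (red sgTrp53, blue sgKmt2c, symbols give the replicate number), the horizontal line is the mean of 3 lines and the bar is 1 SD. Axl lies highest in every line, Met is higher in sgTrp53 replicates 1 and 3 than in all other lines, Erbb2 varies little and Erbb3 is high in sgKmt2c replicate 1.

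By RPKM, *Axl* stood above the other 4 receptors in 6 of 6 lines, and *Egfr* above *Met* in 5 of 6. The second order rested on the transcript length behind the values. The table lists 2943 bases for *Egfr*, while the longest protein-coding transcript in the GENCODE vM1 annotation is 3.47 times as long, at 10208 bases. With *Egfr* rescaled to that length, *Met* stood above *Egfr* in all 6 lines and *Egfr* above *Erbb2* in 3 of 6. *Axl* remained the highest receptor in 6 of 6 lines, and *Met* lay above *Erbb2* in 6 of 6 with either length. The ratio of the RPKM of a gene between lines does not depend on its length, while a fold change on log2(RPKM + 1) depends on it through the added 1.

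The ligands varied more. *Areg* encodes amphiregulin, a ligand of EGFR. For the sg*Trp53* lines the values were 0.547, 0.157 and 1.57 RPKM, from 4, 1 and 13 reads, and the single read of replicate 2 allows a level between 0.00397 and 0.873 RPKM (exact Poisson 95% interval, counting error only). For the sg*Kmt2c* lines the values were 448, 7.01 and 11.9 RPKM, from 2529, 31 and 61 reads. All 3 sg*Kmt2c* lines were above all 3 sg*Trp53* lines, and replicate 1 was 37.6-fold above the next highest. Among all genes tested, 5.72% were higher without overlap in the same direction. The means were 0.759 ± 0.732 and 156 ± 253 RPKM (SD, n = 3 each). On the log2 scale the fold change was 4.43 (SE 1.46, 95% confidence interval 0.95 to 7.92, unadjusted p = 0.0201, adjusted p = 0.493 from limma), and the exact two-sided permutation test gave p = 0.1, the smallest possible.

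The size of the *Areg* difference depended on sg*Kmt2c* replicate 1. Leaving out this line cannot test the separation, since every sg*Kmt2c* line already lay above the sg*Trp53* lines. Without sg*Kmt2c* replicate 1 the sg*Kmt2c* mean was 9.46 RPKM, 12.5-fold that of the sg*Trp53* lines. The log2 fold change was then 2.61 (95% confidence interval 1.53 to 3.70, unadjusted p = 0.00106, adjusted p = 0.190 from limma). Over 15 alternative settings it lay between 2.61 and 5.81, and the adjusted p between 0.190 and 0.927. The spread of *Areg* among the sg*Kmt2c* lines was larger than that of 99.5% of the genes tested.

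Since *Areg* had the largest difference of the 10 genes, the bases before its start are shown. *Areg* lies at chr5:91139615-91148432 on GRCm38 (ENSMUSG00000029378). The 250 bases upstream of its RefSeq start site, chr5:91139349-91139598 on the plus strand of GRCm38.p6, hold a cyclic AMP response element (TGACGTCA) that begins 61 bases before the start and a TATA box (TATAAA) that begins 31 bases before it, both in capitals:
Areg promoter: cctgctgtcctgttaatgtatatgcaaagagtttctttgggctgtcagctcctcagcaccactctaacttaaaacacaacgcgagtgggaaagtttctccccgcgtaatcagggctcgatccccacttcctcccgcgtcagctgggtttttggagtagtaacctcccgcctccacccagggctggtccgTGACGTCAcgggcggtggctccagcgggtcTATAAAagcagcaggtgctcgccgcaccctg
Searched on both strands in windows of the same length, TGACGTCA was found in 1.55% of 32851 promoters and TATAAA in 12.4%. A RefSeq window was at hand for 7 of the 10 genes (*Areg*, *Axl*, *Egfr*, *Erbb2*, *Hgf*, *Met* and *Tgfa*), and *Areg* was the only gene of the 7 with either motif. The AP-1 motif TGANTCA, present in 6.75% of promoters, was found in that of *Met* alone among the 7. The letters describe these windows and were not tied to the levels of the genes.

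*Ereg* encodes epiregulin and lies next to *Areg* (chr5:91074617-91093649, ENSMUSG00000029377). It lay at 0.198, 2.41 and 2.21 RPKM across the sg*Trp53* lines, against 39.8, 0.0656 and 1.13 RPKM across the sg*Kmt2c* lines. The genotypes overlapped, and sg*Kmt2c* replicate 1 stood far above the other 5 lines. The log2 fold change was 0.94 (95% confidence interval -2.23 to 4.12, adjusted p = 0.829 from limma), and it turned to -0.65 without sg*Kmt2c* replicate 1. The pattern of *Areg* in the remaining sg*Kmt2c* lines was thus not found in *Ereg*, which in replicate 2 came from 1 read.

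*Areg* and *Ereg* stand in a cluster of EGF-family genes that also holds *Epgn*, the gene of epigen, and *Btc*, the gene of betacellulin. Within the expression table these are the only genes between the start of *Epgn* (chr5:91027464) and the end of *Btc* (chr5:91402994), and the gaps between neighbours are 39.4, 46.0 and 208.8 kb. *Btc* lay at 0.456, 0.523 and 1.56 RPKM across the sg*Trp53* lines, against 39.3, 1.04 and 3.17 RPKM across the sg*Kmt2c* lines, with overlapping genotypes (log2 fold change 1.97, adjusted p = 0.639 from limma, and 0.71 without sg*Kmt2c* replicate 1). *Epgn* had 3 reads in sg*Trp53* replicate 2 and 0 elsewhere. In sg*Kmt2c* replicate 1, *Areg*, *Ereg* and *Btc* were therefore all at their highest, 37.6-, 16.5- and 12.4-fold above the next highest line, while *Epgn* had 0 reads.

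*Tgfa*, the gene of TGF-alpha (chr6:86195251-86275639, ENSMUSG00000029999), lay at 9.75, 2.48 and 7.53 RPKM across the sg*Trp53* lines, against 20.1, 8.32 and 10.5 RPKM across the sg*Kmt2c* lines. The lowest sg*Kmt2c* line was below the highest sg*Trp53* line, so the genotypes overlapped. Its log2 fold change was 0.94 (95% confidence interval -0.28 to 2.16, unadjusted p = 0.111, adjusted p = 0.641 from limma) and 0.60 without sg*Kmt2c* replicate 1. Leaving out sg*Trp53* replicate 2, its lowest line, gave 0.45.

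*Hbegf* (ENSMUSG00000024486), the gene of heparin-binding EGF-like growth factor, lay at 12.3, 6.65 and 25.7 RPKM across the sg*Trp53* lines. For the sg*Kmt2c* lines the values were 25.3, 7.09 and 10.8 RPKM, nearly the same range. The log2 fold change was -0.04 (95% confidence interval -1.45 to 1.37, adjusted p = 0.987 from limma), so that a change of more than 2-fold either way stayed within the interval. Its direction changed with the line left out: it was -0.51 without sg*Kmt2c* replicate 1 and 0.43 once sg*Trp53* replicate 3 was left out.

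*Hgf*, the gene of the MET ligand (chr5:16553495-16620152, ENSMUSG00000028864), was read 0, 1 and 4 times across the sg*Trp53* lines and 0, 126 and 0 times across the sg*Kmt2c* lines. In sg*Kmt2c* replicate 2 this gave 20.9 RPKM (exact Poisson 95% interval 17.4 to 24.9, counting error only). The highest of the other lines was sg*Trp53* replicate 3, at 0.356 RPKM, and in the 3 lines with 0 reads a count of 0, with 3 reads as the limit, allows up to 0.301 to 0.430 RPKM. *Hgf* was thus found in quantity in 1 line of 6, the line with the second lowest *Met* level. This line was the highest of the 6 for 16.6% of all genes tested. Fibroblast and stellate cell markers summed to 156 RPKM in this line, to 996 in sg*Trp53* replicate 2, where *Hgf* lay at 0.115 RPKM, and to 292 in sg*Trp53* replicate 3. They summed to 121 RPKM in sg*Kmt2c* replicate 3, where *Hgf* had 0 reads. Of these sums, *Col3a1* gave 115, 814, 22.4 and 92.9 RPKM in the same order. The stellate cell gene *Lrat* had 0 reads in all 6 lines. The part of these markers in the level of *Hgf* was not tested.

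**Figure D2:**
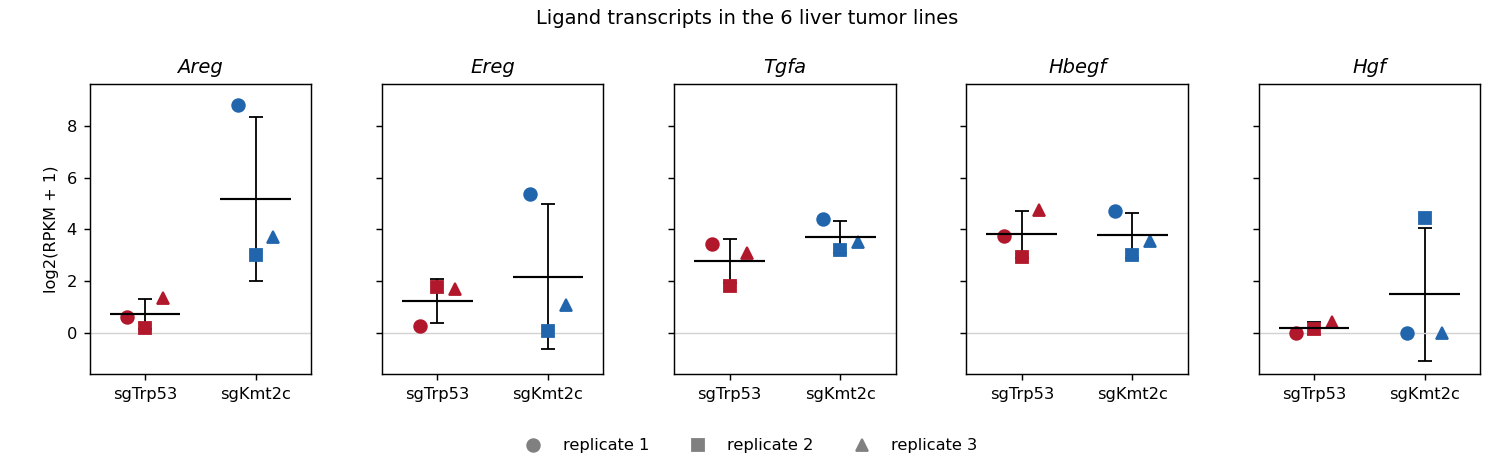
Level of the 5 ligand transcripts as log2(RPKM + 1), by genotype, drawn as for the receptors with the mean of 3 lines and 1 SD. Areg is separated by genotype, Ereg is high in sgKmt2c replicate 1 alone, Tgfa and Hbegf overlap, and Hgf is high in sgKmt2c replicate 2 alone.

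By RPKM the most abundant of the 5 ligands was *Hbegf* in all 3 sg*Trp53* lines, *Areg* in sg*Kmt2c* replicates 1 and 3, and *Hgf* in sg*Kmt2c* replicate 2. These top places were the same after rescaling to the longest transcript. Neighbours in the order did not all keep their places: *Tgfa* lay above *Hbegf* in 1 line by RPKM and in 0 after rescaling. The 5 ligands summed to 22.8, 11.8 and 37.4 RPKM across the sg*Trp53* lines and to 533, 43.4 and 34.4 RPKM across the sg*Kmt2c* lines. The receptor sums were closer, at 202, 181 and 271 RPKM against 335, 215 and 132 RPKM.

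**Figure D3:**
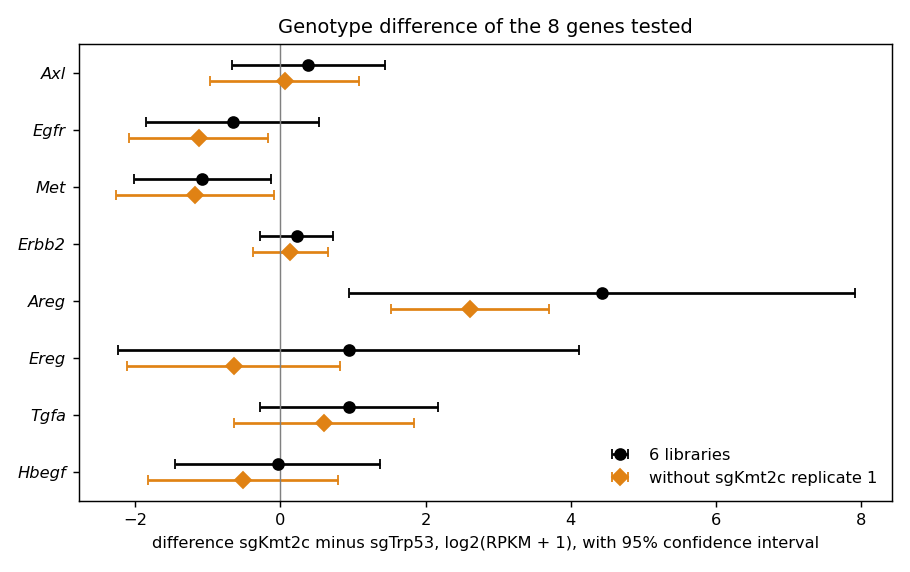
Difference between the genotypes, sgKmt2c minus sgTrp53, of log2(RPKM + 1) for the 8 genes tested (limma), with 95% confidence intervals. Black circles use all 6 libraries and orange diamonds leave out sgKmt2c replicate 1. The intervals of Areg and Met leave out 0 in both settings, that of Egfr only without this line, and Ereg changes side.

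Sorted by line rather than by genotype, sg*Kmt2c* replicate 1 was the highest of all 6 lines for 6 of the 10 genes (*Erbb2*, *Erbb3*, *Areg*, *Ereg*, *Tgfa* and *Axl*). Of the 8 genes tested it was highest for 5, where it was highest for 23.6% of all genes tested. Within its genotype, sg*Kmt2c* replicate 2 was lowest for 7 of the 10 (*Egfr*, *Erbb2*, *Erbb3*, *Areg*, *Ereg*, *Tgfa* and *Hbegf*), and for 6 of the 8 tested against 29.6% of all genes. In the same way sg*Trp53* replicate 2 was lowest of its genotype for 7 of the 10 (*Egfr*, *Erbb2*, *Erbb3*, *Areg*, *Tgfa*, *Hbegf* and *Met*), and for 6 of the 8 tested against 40.0% of all genes. The lowest values of *Erbb3*, *Areg* and *Ereg* in this count rest on 1 to 31 reads. Among the lines of each genotype, these replicates numbered 2 also had the lowest sums of hepatocyte, hepatic epithelial, and biliary and progenitor markers. The biliary and progenitor sum, for instance, was 90.6 and 91.1 RPKM in them and 421 to 3441 in the other 4 lines. Fibroblast and stellate cell markers went the other way, with the highest sum of each genotype in the replicates numbered 2. These sums were 996 RPKM against 18.7 and 292 for sg*Trp53*, and 156 RPKM against 0.282 and 121 for sg*Kmt2c*. *Col3a1* gave 814 of the 996 and 115 of the 156 RPKM. The part of these markers in the levels was not tested.

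**Figure D4:**
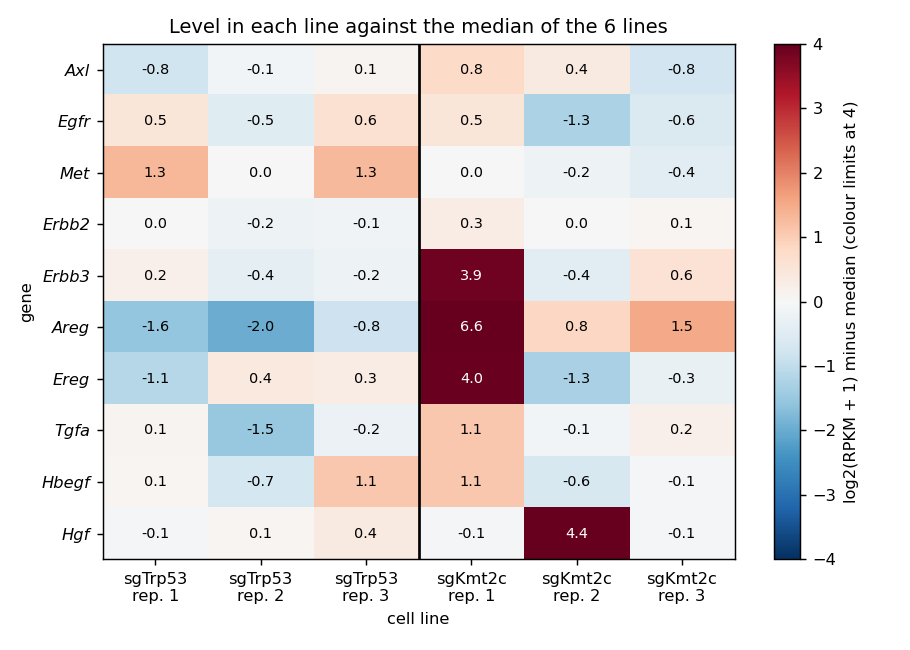
Level of the 10 genes in each line, as log2(RPKM + 1) minus the median of the 6 lines (colour and printed value, colours limited at 4). The deep red fields are Areg, Ereg and Erbb3 in sgKmt2c replicate 1 and Hgf in sgKmt2c replicate 2, and the replicates numbered 2 of both genotypes are at or below the median for most EGFR-family genes.

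Genes whose level followed a receptor most closely were found by the Pearson correlation of log2(RPKM + 1) over the 6 lines, as a description over points that share library depth. For *Egfr* they were *Palm3* (0.988), *Sh3bp2* (0.983) and *Hist1h2bc* (0.981). For *Met* they were *D5Ertd579e* (0.986), *Fuom* (0.981) and *Glis3* (0.977), and for *Axl* they were *Ptgs1* (0.997), *Psen2* (0.995) and *Brox* (0.980). The Spearman correlations of these 9 genes lay between 0.771, for *Palm3*, and 1, for *Psen2*. None of the 9 is a receptor or ligand described here.

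The other genes of the pathway were read from lists of 76 genes, of which 75 were in the expression table and 63 could be tested. Of these 63, 0 had an adjusted p-value under 0.05 (limma), where 0.129% of all genes tested did, and 6 an unadjusted one, where 8.58% did. The genotypes did not overlap in 11 of the 63, higher in 2 and lower in 9, or 17.5%, where 16.2% of all genes tested did not overlap (5.72% higher and 10.4% lower). The median log2 fold change of the 63 was 0.12.

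Further ligands and receptors were mostly low. *Erbb4*, the remaining EGFR-family receptor, lay at 0.111 RPKM or lower in every line, and *Egf* itself at 0.295 to 0.802 RPKM. *Nrg1*, the gene of neuregulin, a ligand of ERBB3, lay at 6.39, 1.07 and 4.49 RPKM against 12.2, 3.35 and 4.78 RPKM and overlapped (log2 fold change 0.66, adjusted p = 0.754 from limma). Its log2 fold change was 0.20 without sg*Kmt2c* replicate 1 and 0.12 without sg*Trp53* replicate 2. The proteases that release EGFR ligands were well expressed: *Adam10* lay at 43.9 to 61.0 RPKM across the sg*Trp53* lines, against 50.2 to 134 across the sg*Kmt2c* lines (log2 fold change 0.50, adjusted p = 0.722), and *Adam17* differed by a log2 fold change of -0.25 (adjusted p = 0.770, both from limma). The value of *Adam10* came from sg*Kmt2c* replicate 2, without which it was 0.06.

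Around MET, the receptor of macrophage stimulating protein, *Mst1r*, lay at 0.215 RPKM or lower in every line. The gene of that ligand, *Mst1*, lay at 2.03, 1.50 and 1.22 RPKM across the sg*Trp53* lines, against 35.4, 12.4 and 2.59 RPKM across the sg*Kmt2c* lines, without overlap (log2 fold change 2.23, adjusted p = 0.528 from limma). *Hgfac*, the gene of a protease that activates HGF, lay at 2.26, 0 and 1.17 RPKM against 50.2, 3.87 and 3.23 RPKM (log2 fold change 2.40, adjusted p = 0.583 from limma). *Mst1* and *Hgfac* are both known as hepatocyte genes, and the hepatocyte markers were likewise highest in sg*Kmt2c* replicate 1. The part of these markers in the levels was not tested. Without sg*Kmt2c* replicate 1 the log2 fold changes were 1.43 for *Mst1* and 1.24 for *Hgfac*. *Plau*, the gene of urokinase, which can also activate HGF, showed the opposite order, at 18.8, 26.2 and 41.3 RPKM across the sg*Trp53* lines and 9.51, 10.9 and 3.40 RPKM across the sg*Kmt2c* lines, again without overlap (log2 fold change -1.79, adjusted p = 0.388 from limma). Among all genes tested, 5.72% were higher without overlap, as *Mst1* and *Hgfac* were, and 10.4% lower, as *Plau* was.

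Of the genes related to AXL, *Tyro3* lay at 3.57, 5.27 and 3.19 RPKM across the sg*Trp53* lines, against 0.476, 2.01 and 2.31 RPKM across the sg*Kmt2c* lines (log2 fold change -1.01, adjusted p = 0.569 from limma). The genotypes did not overlap in *Tyro3*, where 10.4% of all genes tested were lower without overlap. *Mertk*, the other receptor gene related to AXL, was too low to be tested, at 0.540 RPKM or lower. The AXL ligand gene *Gas6* lay at 27.1, 12.3 and 18.9 RPKM against 0.900, 18.1 and 12.0 RPKM. Its low line was sg*Kmt2c* replicate 1, the line with the highest *Axl* (log2 fold change -1.33, adjusted p = 0.694), and without this line the log2 fold change was -0.31. *Pros1*, the gene of protein S, a ligand of the related receptors, differed by a log2 fold change of -0.76 (adjusted p = 0.769, both from limma), or -0.19 without the same line. That of *Tyro3* was then -0.64.

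Downstream of the receptors, 4 of 10 adaptor and early effector genes were lower across the sg*Kmt2c* lines without overlap, where 10.4% of all genes tested were. The median log2 fold change of the 10 was -0.33, beside -0.09 for all genes tested. *Plcg1*, the gene of phospholipase C gamma, lay at 34.6, 41.6 and 40.9 RPKM against 19.9, 22.6 and 28.4 RPKM (log2 fold change -0.71, adjusted p = 0.439 from limma). The scaffold gene *Gab1* differed by a log2 fold change of -0.56 (adjusted p = 0.569) and the phosphatase gene *Ptpn11* of -0.41 (adjusted p = 0.615, both from limma), while *Grb2* had the smallest difference of the 4.

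In the RAS-ERK cascade, *Nras* lay at 44.1, 54.7 and 51.7 RPKM across the sg*Trp53* lines, against 27.7, 25.2 and 28.5 RPKM across the sg*Kmt2c* lines, without overlap (log2 fold change -0.86, unadjusted p = 0.00224), and its adjusted p of 0.286 (limma) was the lowest of the 63 genes. Of the 10 cascade genes tested 2 were lower without overlap, where 10.4% of all genes tested were. In the PI3K-AKT list 1 of 7 genes did not overlap, where 16.2% of all genes tested did not. This was *Pik3ca* (log2 fold change -0.31, adjusted p = 0.697 from limma). None of 8 genes that turn receptors down, such as *Cbl* and *Errfi1*, was free of overlap, with the same share over all genes, and the median of these 8 was -0.26.

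Genes that ERK activity is known to raise, together with its feedback inhibitors, overlapped between the genotypes in all 15 cases tested, where 16.2% of all genes tested did not overlap. Their median log2 fold change was 0.57. In 10 of the 15 the highest level was in sg*Kmt2c* replicate 1, where this line was highest for 23.6% of all genes tested. Picked out after the values were seen, *Dusp6*, the gene of an ERK phosphatase, lay at 7.62, 8.87 and 23.2 RPKM across the sg*Trp53* lines, against 141, 10.2 and 26.6 RPKM across the sg*Kmt2c* lines. *Phlda1* lay at 6.90, 8.49 and 21.5 RPKM against 115, 21.2 and 19.0 RPKM. In both genes the high value was that of the line with the highest *Areg*, *Ereg*, *Tgfa* and *Axl*, and the remaining 5 lines lay between 6.90 and 26.6 RPKM. The phosphatase gene *Dusp4* (68.5 RPKM in this line, 1.30 to 15.8 in the others) and *Fosl1*, a component of AP-1 (69.0 RPKM against 7.95 to 23.1), had the same high line. Without it the log2 fold changes were 0.47 for *Dusp6*, 0.82 for *Phlda1*, -0.42 for *Dusp4* and -0.43 for *Fosl1*, so that *Dusp4* and *Fosl1* changed direction from 0.81 and 0.46. *Egr1*, another ERK-responsive gene, was lowest in the same line (5.77 RPKM against 14.6 to 25.4). A link between the levels of the ligands or receptors and those of the ERK-responsive genes was not tested.

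**Figure D5:**
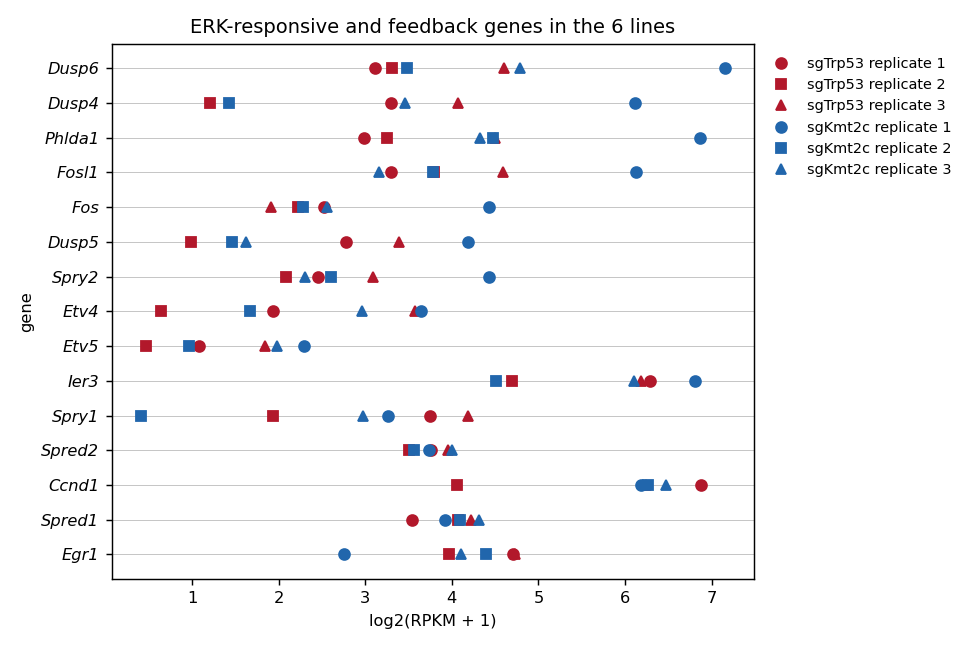
Level of the 15 ERK-responsive and feedback genes tested, as log2(RPKM + 1) on the horizontal axis, with a row for each gene and a point for each line (red sgTrp53, blue sgKmt2c, symbols give the replicate number). Genes are ordered by the level of sgKmt2c replicate 1 over the median, and this line is the highest for 10 of the 15 genes and the lowest for Egr1.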

How the data were processed

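RNA of 3 *Myc*; sg*Trp53* and 3 *Myc*; sg*Kmt2c* mouse liver tumor cell lines was sequenced from TruSeq libraries in the same lanes of 1 flow cell. The submitters' notes name Trimmomatic, STAR, HTSeq and DESeq2 1.8.2, with the build GRCm38. The authors deposited RPKM values (FPKM in the methods), per listed transcript length. Whether counting used strand is not given in the sources used here, so reads of overlapping genes cannot be told apart. Of 21065 entries 209 have no values, and 6 sample columns were not used. The authors' DESeq2 comparison, deposited as mean counts, fold changes and p-values, was not used.

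RPKM multiplied by length gave whole reads for 100% of the values (within 0.01 of a read), and intervals from reads cover counting error only. Genes with at least 1 RPKM in at least 3 libraries were tested with limma 3.58.1 in R 4.3.3 (mean-variance trend) on log2(RPKM + 1), which understates changes of low genes, with Benjamini-Hochberg adjustment over all genes tested. The labels call the samples of a genotype independent triplicates. No pair of replicates came near to being the same library (lowest chi-square per gene 26.5, where sampling noise gives about 1). Plots used matplotlib 3.10.9.

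The receptors, ligands and pathway lists were chosen with earlier results of these data known. All receptors and ligands are named. Of the pathway genes, up to 3 per list without overlap (those with the largest fold changes), 12 fixed partners and, picked after their values were seen, *Grb2*, *Cbl*, *Errfi1*, *Egr1*, *Dusp4*, *Dusp6*, *Fosl1* and *Phlda1* are named, apart from a gene not reported here. *Btc* and *Epgn* are also named as neighbours of *Areg*. Alternatives changed the pseudocount (0.1, 0.5), filter, scaling, moderation, test, lines and replicate block. Sequences are from RefSeq.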

Additional observations from a re-analysis of the deposited data

How the results depend on the processing

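No receptor or ligand passed an adjusted p-value of 0.05 in any of the settings run, and the lowest adjusted p among them was 0.190. With a threshold on the unadjusted p-value instead, 2 of the 8 genes passed, as did 6 of the 63 other pathway genes and 997 of all genes. The count over all genes was less stable: 15 as reported, 6 with a pseudocount of 0.1, 5 with no filter on low values, 4 with limma voom on the recovered reads and 0 with sg*Kmt2c* replicates 2 and 3 averaged as a single sample (1031 unadjusted). Leaving out a line at a time gave 0 to 8, and 8 only without sg*Kmt2c* replicate 1. The 5 other fits gave 0 with 563 to 1477 unadjusted. For the receptors and ligands past the threshold these fits gave 0 throughout.

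The direction was the same in all 15 alternatives for *Areg* (2.61 to 5.81), *Met* (-1.52 to -0.85), *Egfr* (-1.13 to -0.26), *Axl* (0.06 to 0.83), *Erbb2* (0.14 to 0.30) and *Tgfa* (0.45 to 1.27). *Ereg* ranged from -0.65 to 1.98 and turned negative without sg*Kmt2c* replicate 1. *Hbegf* ranged from -0.51 to 0.43 and was positive with median-of-ratios scaling (0.039), with sg*Kmt2c* replicates 2 and 3 averaged (0.21) and without sg*Trp53* replicate 3 (0.43), sg*Kmt2c* replicate 2 (0.34) or sg*Kmt2c* replicate 3 (0.06). *Dusp4* was at -0.02 without sg*Trp53* replicate 2 and at -0.42 without sg*Kmt2c* replicate 1, and *Fosl1* at -0.43 without the latter. With a line left out at a time, *Dusp4* ranged from -0.42 to 1.93 and *Fosl1* from -0.43 to 1.06.

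A replicate block gave 0 genes past the threshold (1085 unadjusted) and 0 receptors or ligands. The labels give no pairing, so the numbers were not taken as pairs. The deviations of equally numbered lines correlated at 0.192, 0.399 and 0.0316. For sg*Kmt2c* replicates 1 and 2 the equally numbered sg*Trp53* line was the best match, with next best values of 0.152 and -0.218. Replicate 3 of sg*Kmt2c* correlated slightly better with sg*Trp53* replicate 1 (0.0519).

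With 1 to 63 reads behind most values above 0 of *Areg*, *Ereg*, *Erbb3* and *Hgf*, small differences among their low values cannot be ranked. Groups of 3 were not tested for outlying samples. The rescaling to the longest transcript, which moved the orders of *Egfr* and of the ligands, was chosen after the data were seen.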
